A study of Schmidtea mediterranea with 152 samples.

Results

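The genes described are wnt1 (contig dd_Smed_v4_28398) and pitx (contig dd_Smed_v4_15253) of the planarian Schmidtea mediterranea, in single cells from the posterior pole and from muscle around it. Both were found by contig number, with 1 row each in the deposited counts, and are 2 of 26399 transcripts used. Every cell came from non-dividing cells of asexual CIW4 animals that had been starved, sorted 1 per well and amplified by the Smart-seq2 method. Uninjured cells came from the midline of tail tips, and regenerating cells from the midline of blastemas cut out 72 hours after the tail had been amputated. The labels give 7 pole and 65 non-pole libraries for uninjured tails, and 5 pole and 75 non-pole libraries for blastemas. The labels give more uninjured pole libraries, and more non-pole libraries in both conditions, than the study's text counts. The sources used here do not say which libraries account for this.

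Planarian muscle cells carry positional information. They express genes whose products tell neighbouring cells where along the body they lie. wnt1 encodes a secreted Wnt ligand made at the posterior pole, a handful of muscle cells at the tail tip, and by muscle cells at fresh wounds. pitx encodes a homeobox transcription factor that is needed to form the posterior pole and the midline, and it is also expressed in serotonergic neurons. Wnt ligands are carried out of the cell by Wls, bind Frizzled receptors on other cells and act through beta-catenin, and in planarians this signal marks the posterior.

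The classes were made by qRT-PCR on the cDNA before sequencing. Pole cells had wnt1 and collagen product, and non-pole muscle cells had collagen product alone. The primers of that screen are shown because they, and not the sequencing counts, decided which cell was called a pole cell. They are the designed oligos in the study's supplement and were not placed on the contigs here. The wnt1 primers hold 40% and 41.7% G and C, the collagen primers 45.8% and 52.2%.
wnt1 forward: gtgacattatgctcaaaggatttcc
wnt1 reverse: acggacagtgtgataacttaaacg
collagen forward: ggtgtacttggagacgttggttta
collagen reverse: ggtctaccttctcttcctggaac
Since wnt1 chose the cells, its level between the classes is given below as a description only. pitx had no part in the screen.

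After 6 near-identical pairs of uninjured non-pole libraries had been summed and 12 shallow cells left out, 7 pole and 53 non-pole cells were kept for uninjured tails, and 5 pole and 69 non-pole cells for blastemas. Reads on the transcripts used ran from 51801 to 4132918 per cell, so that 1 read was worth 0.242 to 19.3 CPM, the reads of a transcript scaled to a fixed total of those reads. No animal or plate is named, so each group is 1 sample, cells are not replicates, and no p-value is given. Intervals are exact 95% intervals. Those on levels, folds and shares of reads cover the counting of reads only, and amplified reads without molecular identifiers are not independent molecules. Those on shares of cells take each cell as a separate draw, which the labels cannot bear out. They say nothing of the spread between animals. One pole library stood apart. Uninjured pole cell 1 had 84813 reads, 472 CPM of 13 summed collagens and 283 CPM of 12 summed contractile genes, the lowest values of all 12 pole cells, which otherwise held 14847 to 63472 CPM of collagens. Few collagen reads thus stand behind its label, so the spans and correlations that include it are also given without it. Of the kept non-pole cells, 12 of 53 uninjured and 6 of 69 regenerating ones held under 5000 CPM of collagens. The non-pole class is called muscle here after the study's screen, not after the counts of each cell.

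wnt1 and pitx were read together in every pole cell, 12 of 12. Their summed level was higher in blastema than in uninjured pole cells, for wnt1 2626 CPM (interval 2574 to 2679) against 1432 CPM (1410.2 to 1454), and for pitx 1027 CPM (994 to 1060.4) against 516 CPM (503 to 530). The cells of the 2 conditions overlapped for both genes, and 1 uninjured cell gave 66.1% of the wnt1 and 56.3% of the pitx reads of its group.

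In uninjured pole cells 1 to 7, wnt1 stood at 23.6, 1474, 2844, 586, 2667, 185 and 993 CPM. The levels spanned 120.6-fold, and 15.4-fold without cell 1. Cells 1 and 6 were far under the others. In regenerating pole cells 1 to 5, wnt1 stood at 3072, 3249, 3387, 1843 and 1416 CPM, a span of 2.39-fold. Each blastema cell was above the uninjured median of 993 CPM, while 3 of the 5 were above the highest uninjured cell.

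In uninjured pole cells 1 to 7, pitx stood at 35.4, 293, 511, 1030.0, 819.8, 62.7 and 584 CPM, a span of 29.1-fold, or 16.4-fold without cell 1. Cells 1 and 6 were again the lowest, while the highest was cell 4, where wnt1 was modest. In regenerating pole cells 1 to 5, pitx stood at 1308, 737, 1895, 604 and 615 CPM, a span of 3.14-fold. Cells 1 and 3 were above every uninjured cell, and the other 3 lay among the upper uninjured ones. Uninjured pole cell 1 rests on 2 wnt1 and 3 pitx reads (wnt1 interval 2.86 to 85.2 CPM, pitx interval 7.29 to 103.4 CPM). Uninjured pole cell 6 was deep, with 605 wnt1 and 205 pitx reads among 3271738. Its counting intervals were narrow, 170 to 200.3 CPM for wnt1 and 54.4 to 71.8 CPM for pitx. The cause of its low level of both genes was not tested.

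**Figure D1:**
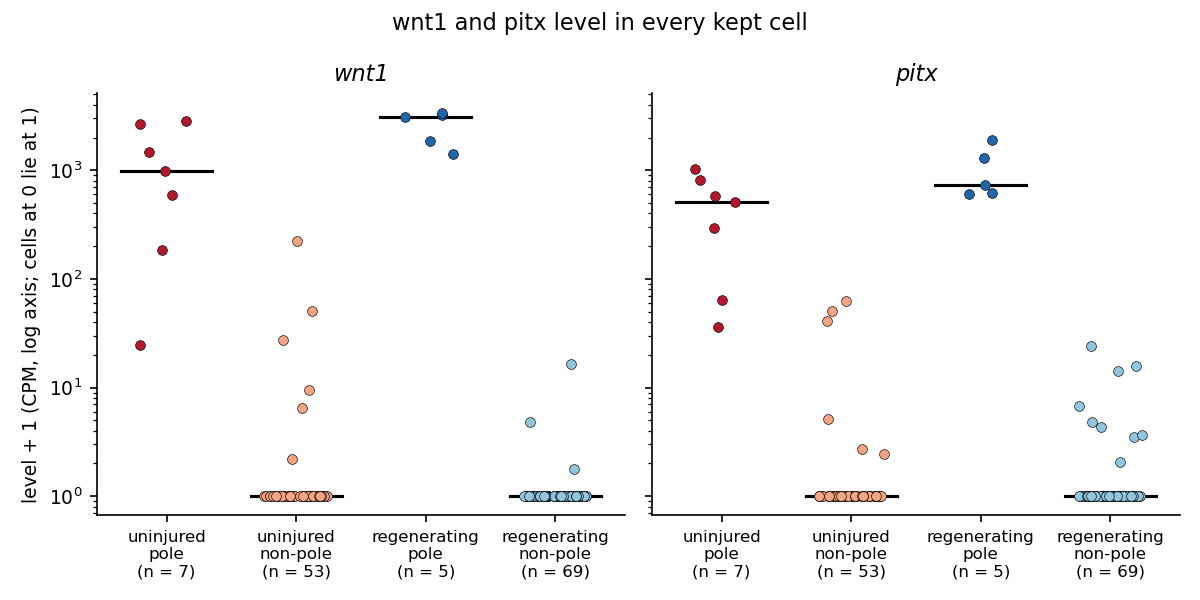
Level of wnt1 (left) and pitx (right) in each kept cell of the 4 groups, as CPM + 1 on a log axis, with a bar at the group's median and cells without a read at 1. All 12 pole cells hold both genes, uninjured pole cells reach down to 23.6 CPM of wnt1 and 35.4 CPM of pitx, and most non-pole cells lie at 0.

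The question the design puts to pitx is whether it marks the wnt1-positive cells against the muscle around them. Summed over cells, pitx was at 516 CPM in uninjured pole cells and at 0.970 CPM in uninjured non-pole cells, 533-fold higher (interval 394 to 740). In blastemas it was at 1027 CPM in pole and 0.687 CPM in non-pole cells, 1494-fold higher (889 to 2736). On the scale of log2(CPM + 1) these were differences of 8.04 and 9.25, the 5th and the 4th from the top of 19372 transcripts with at least 20 reads, whose medians were -0.91 and -0.43. wnt1, which made the classes, differed by 8.92 and 11.10. The mean of the cells' CPM in place of the sum gave a pitx difference of 6.90 in uninjured cells. By that mean, pitx was at 476 CPM in pole and 2.99 CPM in non-pole cells, so the change lay mostly on the non-pole side. In the sum, 1 pole cell gave 56.3% of the uninjured pole reads of pitx. The lowest pole cell, at 35.4 CPM, was under 3 uninjured non-pole cells, so the pitx levels of pole and non-pole cells overlapped in uninjured animals. In blastemas they did not, with 604 CPM in the lowest pole cell and 23.01 CPM in the highest non-pole cell. Without uninjured pole cell 1, the lowest uninjured pole cell stood at 62.7 CPM, just above the highest non-pole cell at 61.3 CPM, and their counting intervals overlap (54.4 to 71.8 and 24.6 to 126.2).

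At an equal depth of 50000 reads per cell, every pole cell had a pitx read, 7 of 7 in tail tips (100%, interval 59.04 to 100) and 5 of 5 in blastemas (100%, 47.8 to 100). It was read in 3 of 53 uninjured non-pole cells (5.66%, 1.18 to 15.7) and 3 of 69 regenerating non-pole cells (4.35%, 0.906 to 12.2). At full depth these were 6 of 53 (11.3%) and 9 of 69 (13.04%). wnt1 was read at equal depth in 12 of 12 pole cells, in 3 of 53 uninjured and in 1 of 69 regenerating non-pole cells, and at full depth in 6 and 3 non-pole cells. Median depth was 648498 and 444246 reads in pole and non-pole cells before injury, and 906071 and 218403 reads in blastemas.

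The ratio of the 2 genes was compared within cells, where depth cancels. The lengths of the contigs were not used here, so the ratio compares cells and does not say which gene has more mRNA. In the 12 pole cells, wnt1 made up a median of 72.4% of the wnt1 plus pitx reads, from 36.2% to 84.8% (SD 15.7). The share was 40%, 83.4%, 84.8%, 36.2%, 76.5%, 74.7% and 62.96% in uninjured pole cells 1 to 7. It was 70.1%, 81.5%, 64.1%, 75.3% and 69.7% in regenerating pole cells 1 to 5. wnt1 had more reads than pitx in 10 of the 12 cells, with 5.57 wnt1 reads per pitx read at most, in uninjured pole cell 3. The exceptions were uninjured pole cell 1, whose interval of 5.27 to 85.3% covers every other cell, and cell 4, whose 278 wnt1 and 489 pitx reads give 32.8 to 39.8% and set it apart from the other 10 cells. The blastema cells varied less (SD 6.56 against 20.04 percentage points, or 18.2 without uninjured pole cell 1), but their counting intervals did not all overlap, and summed over cells the share was 73.5% in uninjured (72.9 to 74.1) and 71.9% in regenerating cells (71.1 to 72.6). Cell 4 held 19659 CPM of collagens and 0 CPM of 8 summed neuron markers, and the neuron sum ran from 0 to 1062 CPM in uninjured and from 81.5 to 1621 CPM in regenerating pole cells.

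**Figure D2:**
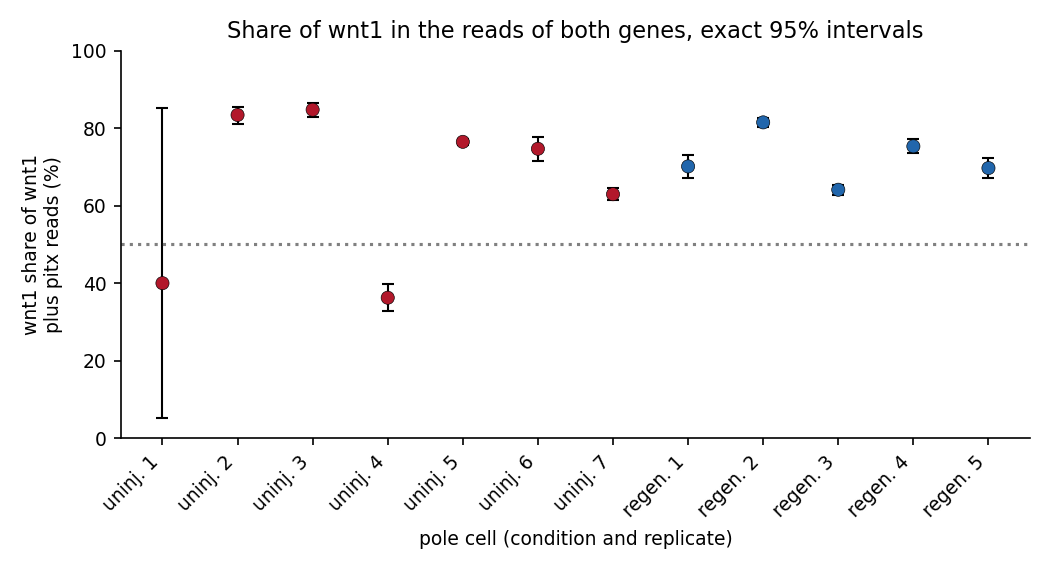
wnt1 share of the wnt1 plus pitx reads in each of the 12 pole cells (%, point) with its exact 95% interval (bar), uninjured in red and regenerating in blue, and a dotted line at equal reads. Uninjured pole cell 4 lies at 36.2% with a narrow interval, cell 1 has a wide one, and the 5 regenerating cells lie between 64.1% and 81.5%.

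The relation of the 2 genes over all pole cells rests on the 2 low cells. Over 12 pole cells Pearson's r of log2(CPM + 1) was 0.875 and Spearman's rho 0.650, a description of points that each take both genes from 1 library. Without uninjured pole cell 1, r was 0.746 and rho 0.545 (11 cells). Without cells 1 and 6, which are also the pair farthest from the median of wnt1, r was 0.276 and rho 0.394 (10 cells). Among the 5 regenerating pole cells r was 0.740 and rho 0.8, and among the 5 uninjured pole cells other than 1 and 6 r was -0.32 and rho -0.5. The difference between the conditions was not tested. Within the pole cells, the muscle genes moved with wnt1 too. Its r with summed collagens was 0.817 over 12 cells and 0.285 without uninjured pole cell 1, and with summed contractile genes 0.821 and 0.673. For pitx these were 0.637 and -0.01 for collagens and 0.602 and 0.291 for contractile genes. The part of muscle content in the relation of wnt1 and pitx was not tested.

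**Figure D3:**
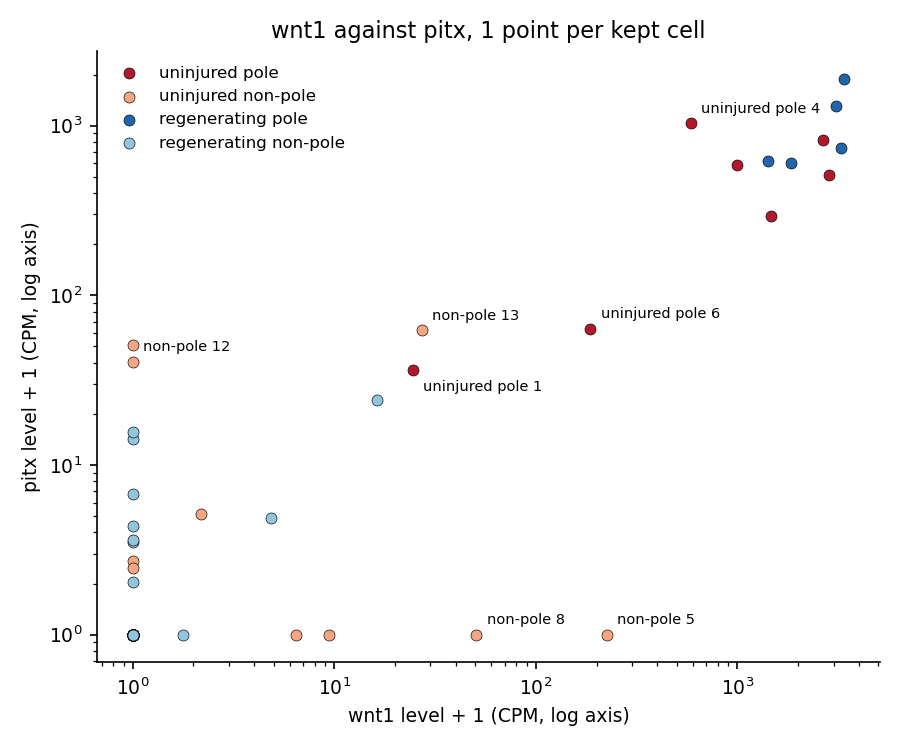
wnt1 against pitx in each kept cell, both as CPM + 1 on log axes, with 1 point per cell coloured by group and some cells named. Among pole cells, 10 form a cloud at high levels of both genes, while uninjured pole cells 1 and 6 lie apart, next to uninjured non-pole cell 13. Non-pole cells 5 and 8 hold wnt1 alone.

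Of the non-pole cells kept, 20 held a read of either gene (16.4%, interval 10.3 to 24.2), 10 in each condition. Both genes were read in 4 of them, wnt1 alone in 5 and pitx alone in 11. At equal depth 8 cells remained with a read, 2 with both genes. Of the 12 cells left out as shallow, 1 held a single pitx read and none held wnt1.

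Among uninjured non-pole cells, wnt1 was highest in cell 5, with 47 reads or 224 CPM (interval 165 to 298) and no pitx read, which allows up to 14.3 CPM of pitx by a limit of 3 reads. This is above the level in uninjured pole cell 1, and its interval overlaps that of uninjured pole cell 6 (170 to 200.3 CPM). Cell 5 held 76548 CPM of collagens. Cell 8 held 24 wnt1 reads or 49.6 CPM, cell 7 held 8 or 5.43 CPM and cell 56 held 1 read, likewise with no pitx read. The 2 uninjured cells with both genes were cell 13, with 3 wnt1 and 7 pitx reads (26.3 and 61.3 CPM), and cell 6, with 2 and 7 reads (1.19 and 4.16 CPM). The wnt1 share of these reads was 30% (interval 6.67 to 65.2%) in cell 13 and 22.2% (2.81 to 60.01%) in cell 6, and both intervals include equal reads.

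pitx without wnt1 was read in uninjured non-pole cells 3 (6 reads, 49.99 CPM), 12 (12 reads, 39.7 CPM), 14 (6 reads, 1.701 CPM) and 16 (4 reads, 1.47 CPM). Cells 3 and 12 were poor in collagens, at 124.98 and 741 CPM against a group median of 66364 CPM, and cell 3 was the lowest of its group. Cell 12 held 3022 CPM of neuron markers, where the group's median was 87.2 and its highest value 6707 CPM. Cells 3, 14 and 16 were under that median, with 8.33, 2.83 and 60.1 CPM of neuron markers. Cells 14 and 16 held 140528 and 106230.0 CPM of collagens.

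In regenerating non-pole cells no more than 2 wnt1 or 3 pitx reads were found in a cell. Cell 48 held 2 wnt1 and 3 pitx reads (15.3 and 23.01 CPM) and cell 75 held 1 of each (3.87 CPM each). Cell 10 held 1 wnt1 read, and pitx alone was read in cells 1, 7, 9, 47, 56, 66 and 68 with 1 or 2 reads, at 1.04 to 14.7 CPM. Cell 47 had 1248 CPM of neuron markers, the highest of its group. The other 9 cells ranged from 0 to 386 CPM of those markers.

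The titles number the libraries, and all 12 pole libraries lie close together in that numbering. Of the 20 non-pole cells with a read of either gene, 13 (65%) were numbered within 5 of a pole library, against 29 (23.8%) of all non-pole cells kept. All 9 with at least 4 reads of 1 of the genes were among them. The labels do not say what the numbers stand for, and the part of the numbering in these reads was not tested. Without the libraries numbered within 5 of a pole library, 7 non-pole cells held a read, and the pitx difference was 9.02 in uninjured and 9.31 in regenerating cells.

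The 12 companions are transcripts that the study links to the posterior pole, in its text or through its comparison of these cells. Not all of them are established markers. Most were chosen by the study on these same cells, so their counts are no independent evidence. Pole cells held reads of 6 to 12 of the 12 companions in uninjured animals, with 6 in cell 1 and 8 in cell 6, and of 10 to 12 in blastemas. The median non-pole cell held 2 in both conditions, with at most 7 in uninjured and 5 in regenerating cells. The non-pole cells with a member read held 1 to 7. Cell 5, with the most wnt1, held 3: wnt11-2, dd_20026 and SCGN. Cell 6 held 6, with islet1, kallmann1, UNC5B and wnt11-2 among them. Besides wnt1 and pitx, 5 of the companions had a read in all 12 pole cells, dd_23400, dd_16466, dd_20026, LHFP and UNC5B.

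**Figure D4:**
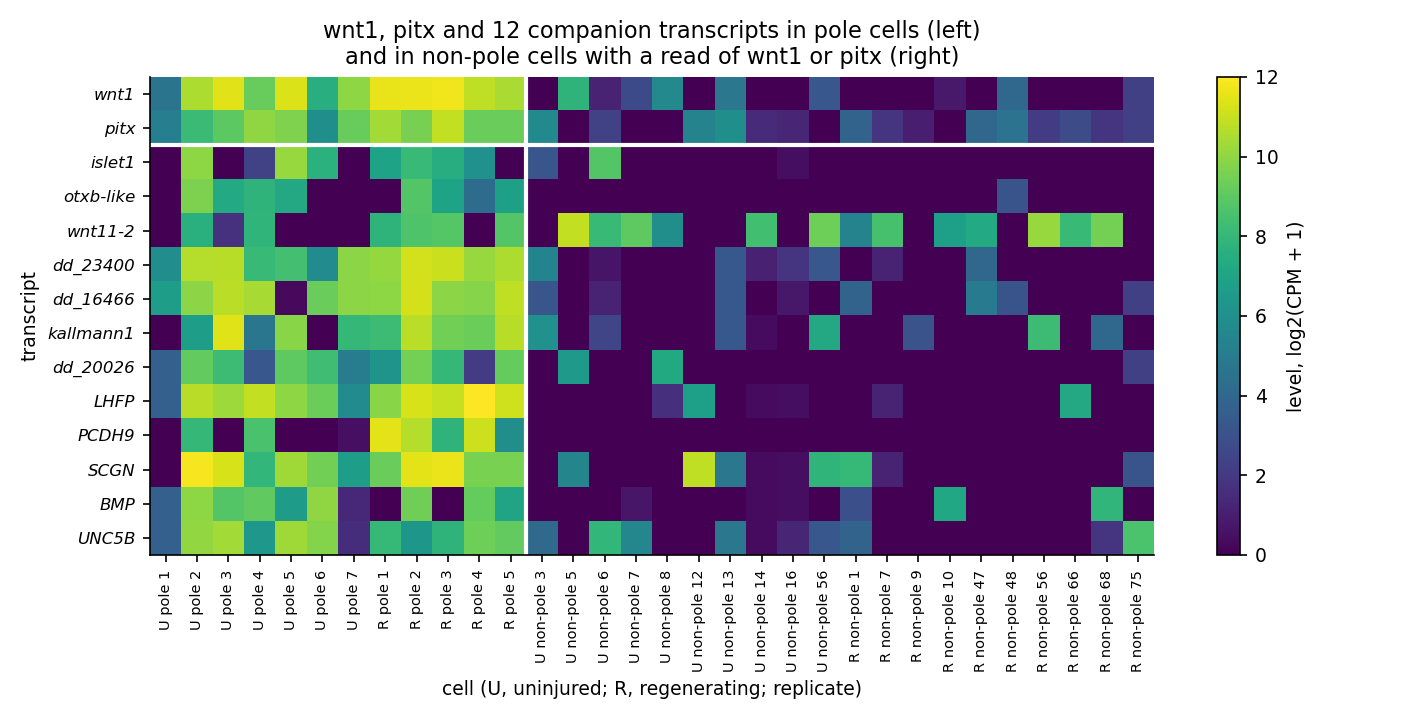
Level of wnt1, pitx and 12 companion transcripts as log2(CPM + 1), colour from 0 to 12, in 12 pole cells (left of the white line) and in the 20 non-pole cells with a read of wnt1 or pitx (right). Pole cells are filled in most rows, uninjured pole cell 1 is dim in all of them, and the non-pole cells show single filled squares, most often for wnt11-2.

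The transcripts whose pattern over all kept cells was most like that of wnt1 were found among 15442 with enough reads. Pearson's r of log2(CPM + 1) with wnt1 was 0.895 for dd_23400, 0.823 for dd_20026, 0.753 for dd_16466, 0.726 for dd_18843, annotated as CUBN, and 0.682 for the homeobox gene otxb-like. With pitx it was 0.911 for dd_23400, 0.783 for dd_16466, 0.685 for dd_20026, 0.682 for LHFP and 0.678 for dd_15362, annotated as the protocadherin PCDH11Y. The order shares 3 transcripts between the genes, and wnt1 and pitx themselves had r = 0.890. These values carry the step between pole and non-pole cells, which wnt1 fixed. An r over 0.5 was found for 32 transcripts with wnt1 and 27 with pitx.

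Within the 12 pole cells, dd_23400 had r = 0.862 with wnt1 and 0.756 with pitx. The values were 0.829 and 0.608 without uninjured pole cell 1, and 0.550 and -0.15 without cells 1 and 6 (10 cells). It stood at 54.4 to 1682 CPM in uninjured and 1106 to 2312 CPM in regenerating pole cells, with its lowest levels in cells 1 and 6 as for wnt1 and pitx. For dd_16466 these were 0.139 and 0.143 over 12 cells and -0.11 and -0.04 without cell 1. It was at 0.242 CPM in uninjured pole cell 5, 1 read, where wnt1 was at 2667 CPM. Without that cell r was 0.857 and 0.752 (11 cells, cells 1 and 6 among them). Without cells 1 and 6 but with cell 5, r was -0.19 and -0.08 (10 cells). dd_20026 had r = 0.410 with wnt1 and 0.112 with pitx, or 0.197 and -0.22 without cell 1. Without cells 1 and 6 its values were 0.523 and -0.15 (10 cells). Neither dd_23400, dd_16466 nor dd_20026 carries a gene name in the sources used here.

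The Wnt pathway list holds 17 genes besides wnt1, and 16 had at least 20 reads. In pole cells of both conditions, 2 were at least 2-fold higher on the log2(CPM + 1) scale and 5 at least 2-fold lower. Leaving out 1 library at a time, pole or non-pole, neither of the higher ones stayed past 2-fold in both conditions under every omission, and 3 of the lower ones did (ror, ryk and notum). Over all 19372 transcripts the shares were 3.11% higher and 19.7% lower in both conditions, 18.9% higher and 48.1% lower in uninjured and 13.2% higher and 37.8% lower in regenerating cells. In single conditions 3 and 4 members were higher and 6 and 9 lower in uninjured and regenerating cells, and the list's median difference was -0.34 and -1.58.

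For the making of the ligand, both contigs of Wls, the carrier that brings Wnts to the cell surface, were read in 10 of 12 pole cells. Evi/Wls dd_11629 was at only 0.242 and 0.769 CPM in uninjured pole cells 5 and 7. At equal depth it was read in 4 uninjured and 4 regenerating pole cells, and dd_9546 in 5 and 5. Evi/Wls dd_11629 stood at 169 CPM in uninjured pole and 31.1 CPM in non-pole cells (log2 difference 2.40), and at 148.4 against 29.8 CPM in blastemas (2.28). Without uninjured pole cell 6 the uninjured pole level was 56.1 CPM and the difference 0.83. Without regenerating pole cell 4 the regenerating pole level was 78.8 CPM and the difference 1.38. Evi/Wls dd_9546 stood at 226 against 182 CPM (0.31) and at 493.3 against 181 CPM (1.44). Of the kinases, NLK-1, a Nemo-like kinase, was read in all pole cells, from 82.5 to 2760 CPM (differences 1.82 and 1.57), and the uninjured difference was 0.70 without cell 7. wnt11-2, another Wnt ligand gene of the tail, was at 20.3 against 293 CPM in uninjured and 313 against 199 CPM in regenerating cells (-3.78 and 0.66).

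On the receiving side, the Frizzled gene Frz-d was read in all 12 pole cells, from 624.9 to 3647 CPM, and its differences were 0.61 and 0.15. The Wnt-binding receptor gene ror had no read in the 7 pole cells of uninjured tails, where muscle around them held 212 CPM (at least 822-fold lower by a limit of 3 reads), and stood at 14.5 against 206 CPM in blastemas (-3.74). ryk, another Wnt receptor gene, differed by -2.17 and -4.08, and the Frizzled gene fz5/8-4 had no read in pole cells (at least 4.39-fold and 66.6-fold lower), though without uninjured non-pole cell 43 only 5 reads remained in uninjured non-pole cells and no bound can be given. Of the secreted inhibitors, notum, which inactivates Wnts and marks the anterior pole, had no read in any of 12 pole cells (at least 64-fold and 10.6-fold lower). Its level in uninjured non-pole cells was 16.5 CPM, and 3.95 CPM without cell 41. sFRP3 differed by -1.58 and -4.56, the first of which was -0.92 without uninjured non-pole cell 44. wif-like had no read in uninjured pole cells and 1 read in uninjured non-pole cells. In blastemas it was read in 2 pole cells at 294 and 90.5 CPM and in no non-pole cell, at least 676-fold higher by the same limit. Without regenerating pole cell 2 its regenerating pole level was 30.5 CPM and the log2 difference 4.98. These bounds cover counting only, not which cells were drawn, and most of these genes were read in few cells. beta-catenin-1, the transducer of the signal, was at 67.7 against 94.1 CPM and at 297 against 207 CPM (-0.47 and 0.52).

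pitx had the largest difference of the homeobox genes listed, in both conditions. As a background, 3.11% of all 19372 transcripts passed 2-fold upward in each of the 2 conditions, and 19.7% passed it downward. The median over all transcripts was -0.91 in uninjured and -0.43 in regenerating cells. Of the 12 homeobox genes besides pitx, 10 had at least 20 reads. Of these 10, 2 were at least 2-fold higher in pole cells of both conditions and 4 lower. The median difference of the 10 was -2.24 in uninjured and -0.96 in regenerating cells. The higher ones were the LIM homeobox gene islet1 (522 against 16.97 CPM and 142.05 against 7.07 CPM, differences 4.86 and 4.15) and otxb-like (4.46 and 7.38), and both stayed past 2-fold whichever library was left out. Without uninjured pole cell 5, which gave 78.3% of the islet1 reads of its group, islet1 differed by 3.30. Both were read in 8 of 12 pole cells. islet1 had no read in uninjured pole cells 1, 3 and 7 and regenerating pole cell 5, where pitx stood at 35.4, 511, 584 and 615 CPM, and otxb-like had none in uninjured pole cells 1, 6 and 7 and regenerating pole cell 1. Of the islet1 reads in uninjured non-pole cells, 99.6% came from cell 6, which also held both wnt1 and pitx. The lower ones were NKX1-2, prep, IRX2 and ZFHX3. Of these, IRX2 and ZFHX3 stayed past 2-fold whichever library was left out. NKX1-2 had no read in a pole cell, at least 118.5-fold lower in blastemas. In uninjured tails the bound was 72.96-fold, but 99.1% of the non-pole reads came from cell 41, and without it 7 reads remained and no bound can be given. prep, a gene of head patterning in planarians, was read in 3 uninjured pole cells and no regenerating one (-1.75 and -6.31), and its uninjured difference was -0.81 without non-pole cell 14. msh1 passed the threshold in blastemas and not in uninjured tails (5.80 and 0.70), and the difference between the conditions was not tested.

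**Figure D5:**
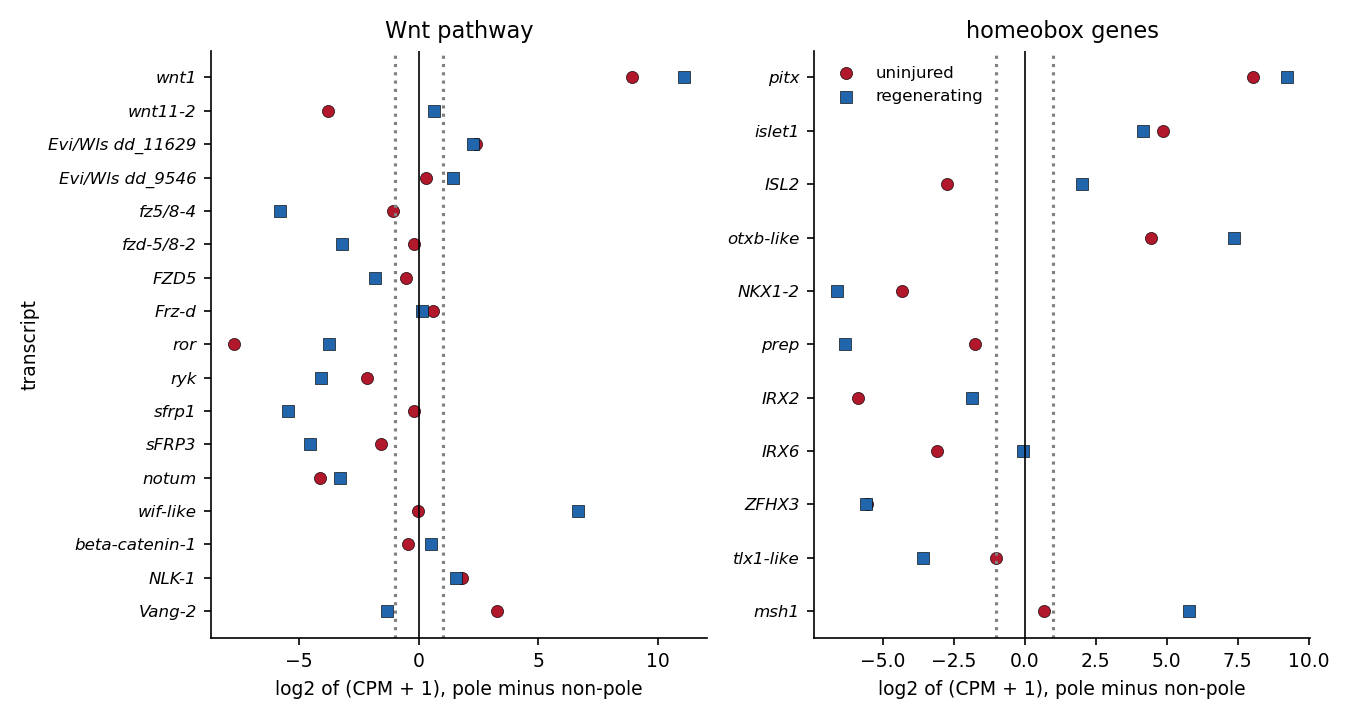
Difference of log2(CPM + 1) between summed pole and non-pole cells for the Wnt pathway (left) and homeobox genes (right) with at least 20 reads, uninjured as circles and regenerating as squares, with dotted lines at 2-fold. wnt1 (8.92 and 11.10) and pitx (8.04 and 9.25) lie farthest to the right in their lists.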

How the data were processed

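Per the labels, each sample is a Smart-seq2 library of 1 cell. The authors deposited raw read counts for 26566 contigs, and their processing notes list Bowtie, CASAVA 1.7.0 and Trimmomatic 0.32, with no roles. In the sources used here the tool that counted, and its rule for reads that fit several contigs, were not given. A deposited table of the authors' pole comparison (SCDE fold estimates and Z scores) was not used. The groups came from the labels. Rows of 1 contig were summed, and 6 rows (a mitochondrial row, 2 abundant contigs, 5S rRNA, an unidentified row and an empty row), 63.6% of counted reads, were left out. Libraries under 10 chi-square per degree of freedom were summed (6 pairs, 1.28 to 7.41, while the others of 9730 pairs had at least 22.2). Cells with at least 50000 reads and 500 transcripts were kept. Counts were summed per group, scaled to CPM and compared as log2(CPM + 1), with Poisson, Clopper-Pearson or conditional binomial intervals (scipy 1.17.1, numpy 2.4.6, pandas 2.3.3). TMM factors came from edgeR 4.0.16. The scripts were tested on simulated data. Named are wnt1 and pitx, the 5 transcripts of highest r with each, and members of the Wnt pathway, homeobox and companion lists. Members and lists were chosen with earlier results of these data known. Doublets were not called, since wells were sorted singly.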

Additional observations from a re-analysis of the deposited data

Results flagged for a closer look

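Among members of the 3 named lists, 2 differed in opposite directions by at least 2-fold in the 2 conditions. The share of all transcripts that did so was not counted, so the number of such members is not read as a result. With 1 sample per group the difference between conditions was not tested. Vang-2, a planar cell polarity gene, was higher in uninjured pole cells (300 against 30.02 CPM, log2 difference 3.28) and lower in regenerating pole cells (47.2 against 118.4 CPM, -1.31), with 61.9% of the uninjured pole reads in 1 cell, and the regenerating difference was -0.95 without regenerating pole cell 3. ISL2, a LIM homeobox gene, was lower in uninjured pole cells (11.8 against 84.2 CPM, -2.74) and higher in regenerating ones (90.8 against 21.6 CPM, 2.02), with 91.7% of the uninjured non-pole reads and 95.8% of the regenerating pole reads in 1 cell each, and without those cells the differences were 0.67 and -1.86.

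No pole cell lay apart from its group by Dixon's 95% criterion in wnt1, pitx, their share or the number of companions read, over 8 sets of values of which chance flags about 1 in 20.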

How the results depend on the processing

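Of 76 alternative values, 64 stayed close to the reported one. A change of direction could be called for the pitx differences and r only, and none was found there. Close meant within the counting interval for the pitx differences and within the SD over pole cells for the wnt1 share. That SD of 15.7 percentage points is a wide mark for a median of 12 cells. All 15 values of the share fell within it, so their number says little. For r and for counts of cells or list members it meant within a fixed tolerance chosen here, which measures no counting error or spread. The 76 values leave out the pole cells with a pitx read at equal depth and the list counts with 1 library left out. The uninjured pitx difference of 8.04 became 7.51 with all counted reads as the denominator, 8.92 with a pseudocount of 0.1 CPM, 6.90 from the mean of the cells' CPM and 9.02 without non-pole libraries numbered within 5 of a pole library. The regenerating difference of 9.25 became 8.05 with all counted reads and 10.3 with the smaller pseudocount. Leaving out each pole cell in turn gave 7.48 to 8.46 in uninjured cells, lowest without cell 5, and 8.72 to 9.43 in regenerating cells. TMM factors gave 8.004 and 8.89. The r of wnt1 and pitx over pole cells was 0.746 with at least 100000 reads or without cells under 5000 CPM of collagens, both of which remove uninjured pole cell 1, and 0.276 without cells 1 and 6. Leaving out 1 pole cell at a time gave 0.746 to 0.932. The count of 20 non-pole cells with a read became 7 without libraries numbered near a pole library and 18 to 21 otherwise. The median wnt1 share ran from 70.1% to 74.7%. At equal depth a pitx read was found in each pole cell that a setting retained, 12 of 12 or 11 of 11, and 11.9 of 12 were expected over all draws. With 1 library left out at a time, the 2 higher Wnt pathway members became 1 to 2, with 1 left without uninjured pole cell 6 or cell 7, and the other list counts stayed within 1 of those reported. The collagen, numbering, cells 1 and 6 and list alternatives were chosen after seeing the data. No paired analysis was possible because each group is 1 sample of cells without replicate numbers and no test was run. Depth limits single-read findings in non-pole cells, where 1 read was worth up to 19.3 CPM.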
